A study of Homo sapiens with 12 samples.

Results

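The EGF receptor family, its ligands and one of its inhibitors were followed in TIGK cells, a telomerase-immortalized (hTERT-transfected) line of human gingival keratinocytes. Genes were chosen by symbol: the receptors EGFR, ERBB2 and ERBB3, the ligands AREG, EREG, HBEGF, TGFA, BTC and EPGN, and the inhibitor ERRFI1, which are 10 of the 58735 genes in the count table. The cells of all 4 groups were kept at 48 mM glucose, either with 500 μM L-Arginine (Arg) or without it (control), for 24 or 48 h. Each group had 3 libraries, replicates A, B and C, so that 12 libraries were compared in all. The base medium held no Arg. The methods list TGF-α, itself a ligand of EGFR, among its supplements, with insulin, pituitary extract, hydrocortisone and others, given as needed. They do not list the supplements for each sequenced group. TIGK is a single immortalized line, so the groups are not different donors.

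The ERBB receptors are tyrosine kinases at the cell surface. A ligand makes receptors pair, the pair phosphorylates itself, and the signal runs through RAS, RAF, MEK and ERK as well as through PI3K. In epithelial cells such as keratinocytes the ligands are made as membrane-bound precursors that ADAM proteases release, so that a cell can stimulate itself and its neighbours. Ligand genes such as AREG and EREG and the inhibitors of the pathway are in turn among the genes that ERK signalling switches on, and the receptors are removed from the surface after ligand binding.

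4 of the ligand genes lie close together on chromosome 4. In the GRCh38 coordinates of the count table, EPGN (ENSG00000182585, chr4:74308473-74315307), EREG (ENSG00000124882, chr4:74365143-74388751) and AREG (ENSG00000109321, chr4:74445134-74455009) follow each other on the plus strand, and BTC (ENSG00000174808, chr4:74744759-74794686) follows on the minus strand. EPGN and EREG are 49.8 kb apart, EREG and AREG 56.4 kb, and AREG and BTC 289.8 kb. The other genes are spread over the genome: EGFR (ENSG00000146648, chr7:55019021-55211628, plus strand), ERBB2 (ENSG00000141736, chr17:39687914-39730426, plus), ERBB3 (ENSG00000065361, chr12:56076799-56103505, plus), HBEGF (ENSG00000113070, chr5:140332843-140346631, minus), TGFA (ENSG00000163235, chr2:70447280-70554193, minus) and ERRFI1 (ENSG00000116285, chr1:8004404-8026308, minus).

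Promoter windows, taken from RefSeq on GRCh38.p14, were found for 9 of the 10 genes, and those of the 3 neighbouring plus-strand ligands are shown because the group means of AREG and EREG had the same order and those of EPGN did not. Each is the 250 bases before the RefSeq gene start, 5′ to 3′ on the plus strand, at chr4:74444886-74445135 for AREG, chr4:74364895-74365144 for EREG and chr4:74308220-74308469 for EPGN. Capitals mark matches, on either strand, to TATAAA, the TATA box core, to TGACGTCA, the cAMP response element, and to TGANTCA, an AP-1 type site.
AREG: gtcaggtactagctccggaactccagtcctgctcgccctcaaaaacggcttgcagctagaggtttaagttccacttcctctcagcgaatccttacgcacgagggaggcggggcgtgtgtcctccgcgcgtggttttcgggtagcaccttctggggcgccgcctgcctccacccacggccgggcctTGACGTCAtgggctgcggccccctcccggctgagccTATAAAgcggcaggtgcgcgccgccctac
EREG: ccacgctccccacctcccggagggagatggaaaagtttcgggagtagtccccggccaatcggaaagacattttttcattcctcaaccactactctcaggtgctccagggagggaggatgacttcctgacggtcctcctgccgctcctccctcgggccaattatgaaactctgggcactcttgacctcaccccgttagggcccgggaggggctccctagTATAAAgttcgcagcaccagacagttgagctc
EPGN: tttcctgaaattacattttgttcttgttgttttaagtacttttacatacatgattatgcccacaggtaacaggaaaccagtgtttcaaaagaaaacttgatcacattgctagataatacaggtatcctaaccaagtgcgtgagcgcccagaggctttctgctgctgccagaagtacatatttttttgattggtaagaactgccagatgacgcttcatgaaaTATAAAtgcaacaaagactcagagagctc
All 3 windows held TATAAA, which began 29 bases before the start in AREG and EPGN and 32 bases before it in EREG, whereas 10.7% of 35116 RefSeq windows of this length held it. The AREG window alone among the 3 held TGACGTCA, which began 65 bases before the start and was found in 1.65% of all windows. TGANTCA, found in 6.57% of all windows, was in none of the 3. No other member window held TGACGTCA. These are matches of letters, and no binding was measured.

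The libraries held 16542243 to 19040964 counts. The 10 keratinocyte markers, among them KRT5, KRT14 and TP63, summed to between 46288.6 and 62630.9 TPM (counts scaled for exonic length and to the same total in every library). The summed markers of fibroblasts reached at most 34.9 TPM, those of leukocytes 7.63, those of endothelial cells 3.47 and those of melanocytes 3.10, and TYR had 0 counts in all libraries. The fibroblast sum, which was mostly DCN and COL1A1 with COL1A2 at 0 to 1 counts, lay at 10.2 to 17.7 TPM at 24 h and at 25.6 to 34.9 TPM at 48 h, and its part in the differences between times was not tested. Mitochondrially encoded genes took 1.20% to 1.30% of the counts in the 24 h control and 0.624% to 0.802% with Arg at 24 h, so this share moved with Arg there without overlap. At 48 h they took 0.707% to 1.55% in the control and 1.14% to 1.31% with Arg. Their part in the differences of the members was not tested. In the 48 h control, replicate B stood apart, with 1.55% against 0.906% and 0.707% in replicates A and C. In the control at both times, replicate B also lay nearest to the Arg libraries in AREG and EREG. Results are given below with and without it, but at 24 h it was singled out by these values of AREG and EREG. A larger change of those genes without it follows from that choice and is given as a description, with no test. For other genes in which control B lay nearest to the Arg libraries, a larger change without it also follows from leaving it out. In bulk RNA, fewer cells that express a gene cannot be told apart from less RNA per cell.

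Among the genes of the family, AREG had the highest level per length in the untreated cells at 24 h, at 469 ± 197 TPM (SD, n = 3). It was followed by ERRFI1 at 223 ± 29.8 TPM, EGFR at 112 ± 15.2 TPM and EPGN at 70.2 ± 17.8 TPM. EREG (40.9 ± 14.7 TPM) and TGFA (38.9 ± 4.54 TPM) overlapped. ERBB2 lay at 18.4 ± 3.43 TPM, ERBB3 at 10.4 ± 1.25 TPM and HBEGF at 4.96 ± 0.369 TPM. Apart from EREG and TGFA, no neighbours in this order overlapped between their libraries. In Arg-treated cells at 48 h the order was different, with EGFR first (214 ± 8.29 TPM), then ERRFI1 (188 ± 11.4 TPM) and AREG (138 ± 3.01 TPM), and no neighbours overlapped there. EREG had moved below ERBB2, TGFA and ERBB3, to 10.8 ± 1.03 TPM. BTC, which encodes betacellulin, had 72 counts over all 12 libraries, 1 to 13 in each, and was too low to be tested in any comparison.

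**Figure D1:**
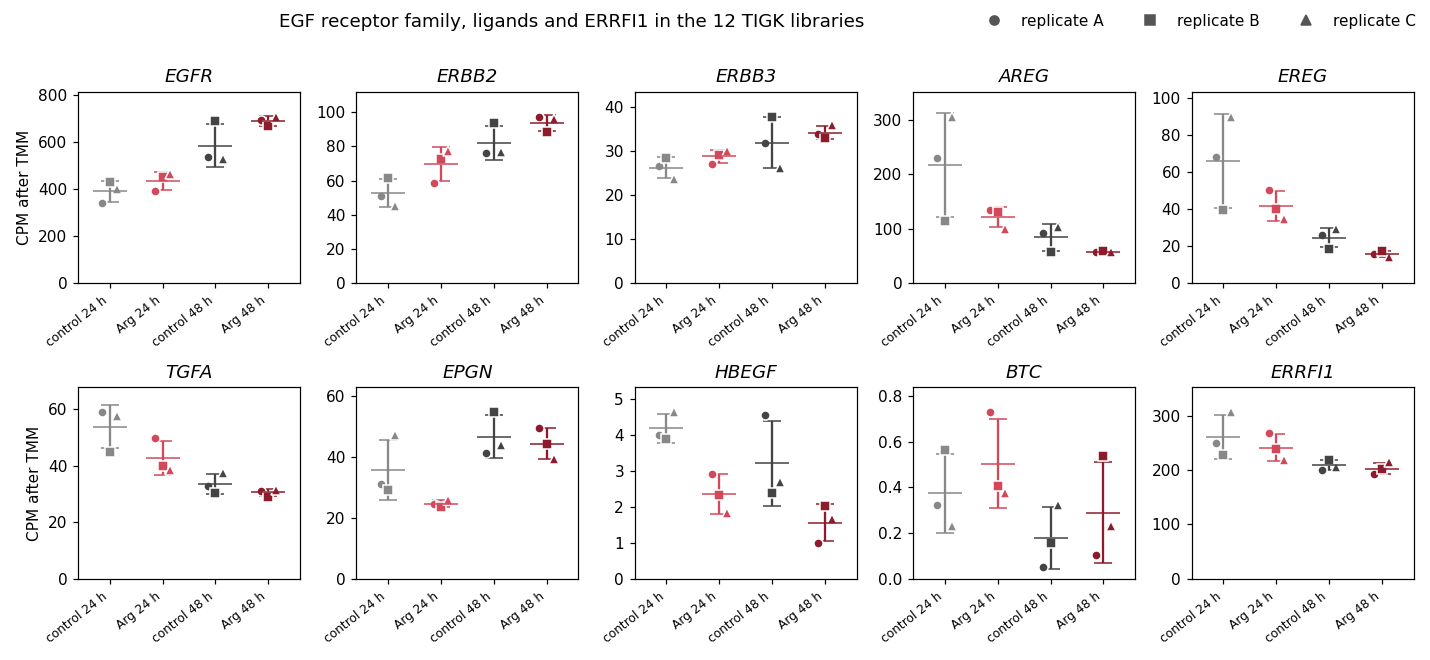
Level of each gene in CPM (counts scaled for library size after TMM normalization), with 1 panel per gene and its own axis from 0. Symbols are libraries by replicate letter, the wide line is the mean of the 3 libraries of a group and the bars are their SD. The group means of AREG and EREG are highest in the 24 h control and lowest with Arg at 48 h, those of EGFR and ERBB2 have the opposite order, and replicate B of the control (squares) sits at the Arg level for AREG.

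At 24 h, the ligand genes AREG and EPGN passed as lower with Arg in edgeR, and the receptors did not pass. Both calls were lost when certain single libraries were left out, and that of AREG also with DESeq2. Of the 9 genes tested, 2 passed an adjusted p of 0.05 in edgeR's quasi-likelihood test, both lower, against 6.63% of all 14279 genes tested and 3.84% for lower genes alone. At an unadjusted p under 0.05 there were 6 members, against 22.8% of all genes. They were the 5 ligands tested, all lower, against 11.9% of all genes in that direction, and ERBB2, higher, against 10.8%. The median log2 fold change was −0.66 over the 5 ligands and 0.16 over the 3 receptors, against 0.0030 over all genes tested. In AREG and EREG the groups overlapped through control replicate B alone.

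AREG encodes amphiregulin, a growth factor of the EGF family that binds EGFR. In the 24 h control it lay at 231, 115 and 306 CPM in replicates A, B and C. In the 24 h Arg group it lay at 134, 132 and 100 CPM. Replicates A and C of the control were thus above every Arg library, and replicate B was below 2 of the 3 Arg libraries. The log2 fold change was −0.83 ± 0.22 (SE, adjusted p = 0.0281). The call was lost with DESeq2 (adjusted p = 0.223) and when any library other than control B was left out (adjusted p of 0.0512 to 0.149). With 1 library left out, the log2 fold change lay between −0.51, without control C, and −1.14, without control B. The share of mitochondrially encoded counts was also lower in all 3 Arg libraries than in all 3 control libraries at 24 h.

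EPGN encodes epigen, another EGFR ligand. It lay at 31.0, 29.0 and 46.9 CPM in the 24 h control and at 24.4, 23.6 and 25.7 CPM in the Arg group, and the groups did not overlap. Groups without overlap were found for 26.2% of all genes tested at 24 h, and for EPGN and HBEGF among the members. EPGN had a log2 fold change of −0.53 ± 0.15 (adjusted p = 0.0351), and DESeq2 called it as well. The call was lost without control C (log2 fold change −0.29, adjusted p = 0.222) or without any one of the Arg libraries (0.0726 to 0.142).

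The other 3 tested ligands did not pass at 24 h. EREG, the epiregulin gene, lay at 67.9, 39.4 and 89.7 CPM in the control and at 50.2, 40.0 and 34.7 CPM with Arg, with a log2 fold change of −0.66 ± 0.20 (adjusted p = 0.0564). As in AREG, its control replicate B lay among the Arg libraries, and the log2 fold change lay between −0.37, without control C (adjusted p = 0.278), and −0.92, without control B. HBEGF, which encodes heparin-binding EGF-like growth factor, had only 34 to 80 counts in a library, with 4.01, 3.90 and 4.64 CPM in the control against 2.92, 2.33 and 1.83 CPM with Arg. Its groups were apart, but the change of −0.83 ± 0.26 missed the threshold (adjusted p = 0.0676). TGFA, the gene of the ligand that the methods also list as a medium supplement, lay at 59.1, 45.1 and 57.7 CPM in the control. With Arg, TGFA lay at 49.8, 40.1 and 38.5 CPM (log2 fold change −0.33 ± 0.12, adjusted p = 0.101). Without control B, TGFA passed (adjusted p = 0.0135) and HBEGF did not (adjusted p = 0.0626). In TGFA, control B was the control library nearest to the Arg group. The smaller p of TGFA without control B follows from leaving it out and is no support. Without Arg A, EREG, HBEGF, TGFA and the receptor ERBB2 passed (adjusted p of 0.0179 to 0.0428). In each of these genes, Arg A was the Arg library nearest to the control group. Their smaller p without Arg A follow from leaving it out and are no support. Of all genes, 10.4% passed without control B and 7.65% without Arg A. Without control C, Arg B or Arg C no member passed.

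Among the receptors at 24 h, ERBB2, which has no known ligand of its own and pairs with the other receptors, came closest to the threshold. It lay at 51.2, 61.5 and 45.3 CPM in the control and at 58.3, 72.6 and 77.3 CPM with Arg, and the groups overlapped through control B and Arg A. Its log2 fold change of 0.40 ± 0.12 had an adjusted p of 0.0525, which was 0.0320 with DESeq2 and 0.00635 without control B. In ERBB2, control B was the control library nearest to the Arg group. The smaller p without control B follows from leaving it out and is no support. Some of the ERBB2 counts may belong to MIEN1 and PGAP3, because the strand setting of the counting was not stated. These genes overlap ERBB2 on the opposite strand, with 2200 and 2082 counts against 16223 for ERBB2. EGFR lay at 342, 429 and 399 CPM against 393, 449 and 465 CPM (log2 fold change 0.16 ± 0.090, adjusted p = 0.310). ERBB3, the kinase-impaired receptor for neuregulins, lay at 23.7 to 28.5 CPM against 27.1 to 30.1 CPM (0.13 ± 0.11, adjusted p = 0.495). ERRFI1, whose product binds and inhibits the EGFR kinase, lay at 227 to 306 CPM against 218 to 268 CPM, with a log2 fold change of −0.11 ± 0.10 (adjusted p = 0.552).

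**Figure D2:**
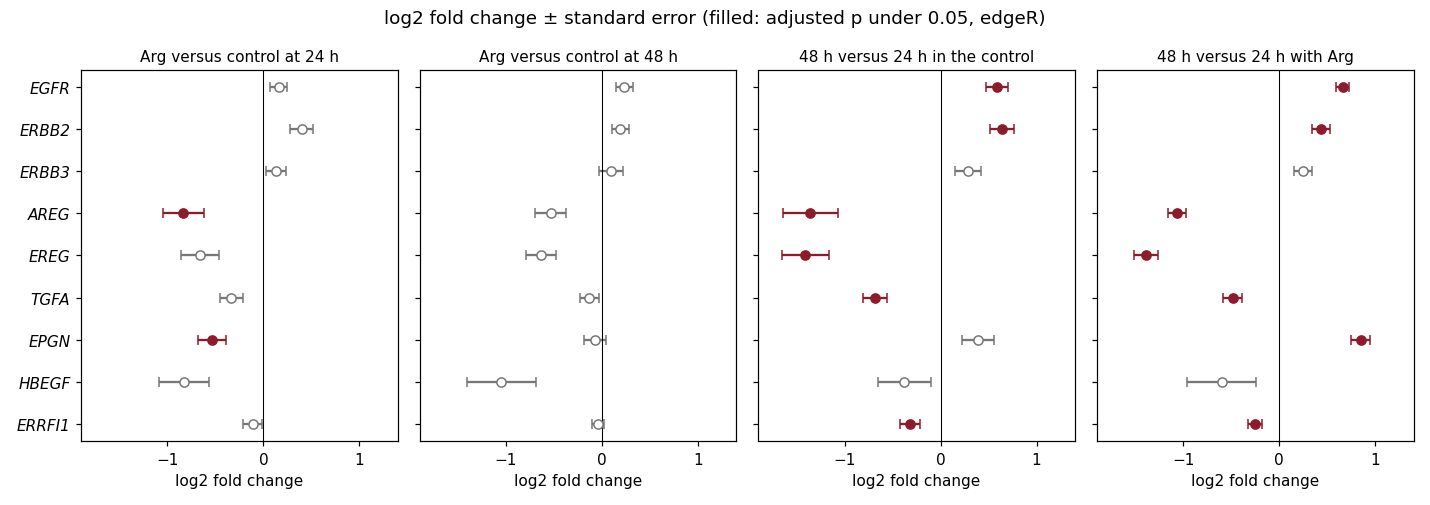
log2 fold change of each tested gene in the 4 comparisons of 2 groups, from edgeR. Points are estimates, bars are standard errors, and filled points have an adjusted p under 0.05. AREG and EPGN are filled at 24 h, no gene is filled for Arg at 48 h, and 6 and 7 genes are filled between the times.

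At 48 h, no gene of the family passed an adjusted p of 0.05 in edgeR, while 0.117% of the 14562 genes tested did. 4 members had an unadjusted p under 0.05, against 13.4% of all genes. DESeq2 called 1, EREG (adjusted p = 0.0144), in a fit where it also called more of all genes than edgeR did, as counted further below. 5 members passed once control B, the library that stood apart, was left out, namely EGFR, ERBB2, AREG, EREG and HBEGF, in a fit where 15.9% of all 14854 genes passed. Control B lay near the Arg libraries in AREG, EGFR and ERBB2, and was the control library nearest to them in EREG and HBEGF. Larger changes and smaller p of these genes without control B follow from leaving it out and are no support. No member passed when any other library was left out.

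EREG lay at 26.1, 18.8 and 29.1 CPM in the 48 h control and at 15.6, 17.7 and 14.4 CPM with Arg. Each control library was above each Arg library, as in 8.51% of all genes (17.1% in either direction), and control B was the lowest of the control. Its log2 fold change was −0.64 ± 0.16 with an unadjusted p of 0.00140 and an adjusted p of 0.148. HBEGF was the only other member whose groups did not overlap, at 4.56, 2.39 and 2.68 CPM against 0.991, 2.02 and 1.67 CPM (−1.05 ± 0.36, adjusted p = 0.241), on 19 to 87 counts per library. Without control B the log2 fold change was −0.80 for EREG and −1.22 for HBEGF (adjusted p = 0.0192 for HBEGF).

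AREG lay at 92.9, 57.1 and 104 CPM in the 48 h control and at 57.2, 60.2 and 58.0 CPM with Arg. The Arg libraries were close together and control B lay with them, below all 3. The log2 fold change was −0.53 ± 0.16 (adjusted p = 0.204), and with 1 library left out it lay between −0.36 and −0.75, the latter without control B. EGFR showed the same arrangement in the other direction, with 535, 689 and 528 CPM in the control and 691, 666 and 706 CPM with Arg (0.23 ± 0.091, adjusted p = 0.299, and 0.37 with an adjusted p of 3.28e-05 without control B). ERBB2 lay at 75.8, 93.6 and 76.4 CPM against 97.2, 88.4 and 95.7 CPM (0.19 ± 0.089, adjusted p = 0.376, and 0.30 with an adjusted p of 0.00369 without control B). In control B, EGFR and ERBB2 lay inside the range of the Arg libraries and AREG just below it. The smaller p of EGFR and ERBB2 without control B follow from leaving it out and are no support.

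The remaining members did not pass at 48 h. TGFA lay at 30.2 to 37.4 CPM against 29.1 to 31.6 CPM (log2 fold change −0.13 ± 0.10, adjusted p = 0.588). EPGN, called at 24 h, lay at 41.2 to 54.6 CPM against 39.4 to 49.5 CPM (−0.074 ± 0.12, adjusted p = 0.817). ERBB3 had a log2 fold change of 0.096 ± 0.12 and ERRFI1 one of −0.043 ± 0.065, and neither passed with or without control B.

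Whether Arg acted differently at the 2 times was tested as an interaction over all 12 libraries. No member passed, where 0.0132% of 15148 genes did, and 1 member had an unadjusted p under 0.05 in edgeR, against 6.87% of all genes. DESeq2 called no member either, with 1 at an unadjusted p under 0.05. That count has no share of all genes beside it and is not read as a result about the members. The member in edgeR was EPGN, with an interaction of 0.46 ± 0.21 on the log2 scale (adjusted p = 0.708), and without control B at both times it was 0.73 (adjusted p = 0.0595). In EPGN, control B was the lowest control library at 24 h and the highest at 48 h. The larger interaction and smaller p without control B follow from leaving it out and are no support. For the other tested members the interaction lay between −0.22 and 0.30. A call at 24 h that is missing at 48 h is therefore not shown to be a difference between the times.

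Between 24 and 48 h, the receptors EGFR and ERBB2 rose and the ligands AREG, EREG and TGFA fell, with or without Arg. In the control, 6 of 9 tested members passed between 24 and 48 h, against 19.9% of all 14449 genes, and 6 members did not overlap, against 39.0% of all genes. With Arg, 7 of 9 passed, against 28.3% of 14398 genes, and 8 did not overlap, against 42.2%. The time comparisons share their libraries with the Arg comparisons, so their values are given side by side with them and are not a second line of support. The 24 and 48 h wells were harvested at different times, and the effect of the harvest itself cannot be told apart from that of culture time.

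Among the receptors, EGFR rose in the control by 0.59 ± 0.11 on the log2 scale (adjusted p = 0.00546) and with Arg by 0.66 ± 0.069 (adjusted p = 1.02e-06). ERBB2 rose by 0.64 ± 0.12 in the control (adjusted p = 0.00532) and by 0.43 ± 0.093 with Arg (adjusted p = 0.00153). For both genes, every 48 h library was above every 24 h library of the same treatment. ERBB3 had smaller changes of 0.29 ± 0.14 and 0.25 ± 0.092 that did not pass (adjusted p = 0.162 and 0.0501), and the latter passed with DESeq2's size factors, with library size only or with at least 10 counts in every library (adjusted p of 0.0177 to 0.0492).

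Among the ligands, AREG fell by 1.36 ± 0.29 in the control (adjusted p = 0.00839) and by 1.06 ± 0.095 with Arg (adjusted p = 1.45e-07), both on the log2 scale. EREG fell by 1.41 ± 0.24 in the control (adjusted p = 0.00376) and by 1.39 ± 0.13 with Arg (adjusted p = 1.81e-07). TGFA fell by 0.68 ± 0.12 and by 0.48 ± 0.10 (adjusted p = 0.00409 and 0.00137). For EREG and TGFA every library at 48 h was below every library at 24 h, with or without Arg, and for EREG the Arg and control groups were also apart at 48 h. EPGN went the other way, rising with Arg by 0.85 ± 0.10 (adjusted p = 4.06e-06), whereas the change of 0.39 ± 0.17 in the control did not pass (adjusted p = 0.122). The control change was 0.63 without control C at 24 h (adjusted p = 0.0313) and 0.13 without control B at both times (adjusted p = 0.444). At 24 h, control C lay at 46.9 CPM, inside the 48 h control range of 41.2 to 54.6 CPM. The larger change without control C follows from leaving it out and is no support. HBEGF had changes of −0.38 ± 0.28 and −0.60 ± 0.36 that did not pass (adjusted p = 0.370 and 0.231).

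The inhibitor ERRFI1 fell by 0.32 ± 0.10 in the control (adjusted p = 0.0440) and by 0.25 ± 0.076 with Arg (adjusted p = 0.0183). Scaling by library size only, in place of TMM, ended both calls (adjusted p = 0.0804 and 0.0650), and 12 libraries in 1 model ended the one with Arg (0.0635). The control call was also lost without replicate A or C at either time, with an adjusted p of up to 0.187. The call with Arg was also lost without Arg A at 24 h or without Arg A or B at 48 h (adjusted p of 0.0598 to 0.0909). EGFR, ERBB2, AREG, EREG and TGFA passed in both time comparisons whichever single library was left out. In the control they also passed with replicate B left out at both times.

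The make-up of the ligands, as shares of the summed TPM of the 6 ligand genes, also moved with time. AREG made up 73.9% ± 5.39 (SD, n = 3) in the 24 h control, 70.7% ± 2.73 with Arg at 24 h, 56.7% ± 9.08 in the 48 h control and 51.1% ± 2.26 with Arg at 48 h. EPGN made up 11.9% ± 3.19, 13.2% ± 2.30, 29.6% ± 9.12 and 35.1% ± 2.86 in the same order of groups. For both genes each 48 h library was apart from each 24 h library, and the Arg and control libraries overlapped within each time. The sum itself was 625 ± 230 TPM in the 24 h control, 387 ± 50.7 with Arg at 24 h, 342 ± 52.1 in the 48 h control and 270 ± 8.25 with Arg at 48 h. At 24 h the sum in control B was 384 TPM, inside the range of the Arg libraries (330 to 425 TPM). At 48 h it was 287 TPM in control B, just above the highest Arg library at 277 TPM. The summed receptors were 141 ± 18.5, 166 ± 15.4, 223 ± 33.3 and 264 ± 10.9 TPM, of which EGFR made up a mean of 77.9% to 81.0% in each group. These sums are over the members and were not tested.

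**Figure D3:**
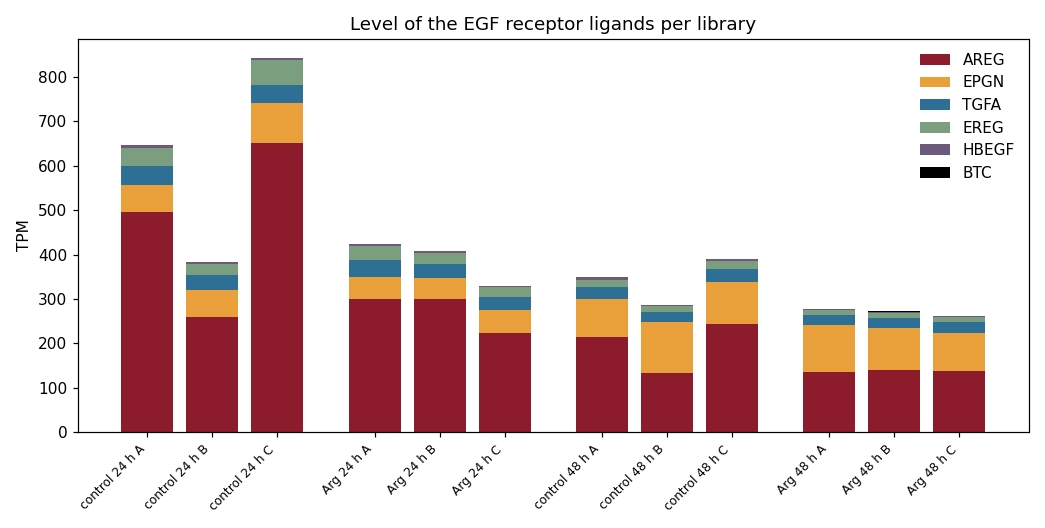
Level of the 6 ligand genes in TPM, stacked, with 1 bar per library and libraries grouped by treatment and time. AREG makes up most of each bar at 24 h, the EPGN share grows at 48 h, and the bars of control B are the lowest of their group.

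Genes outside the members were read from lists of the pathway by role. These lists were chosen with earlier results of these data known, so their counts are no independent support. The ERK transcriptional targets, genes that growth factor signalling through ERK is known to induce, were mostly lower with Arg at 24 h. 9 of the 10 were lower with Arg at an adjusted p under 0.05 and none was higher, against 3.84% lower and 2.79% higher among all genes tested, and their median log2 fold change was −0.73 against 0.0030 over all genes. Without control B, 8 were lower, in a fit where 10.4% of all genes passed in either direction. Leaving out control A or Arg C left 4, where 2.45% and 2.60% of all genes passed in either direction. Leaving out control C or Arg B left 5, where 2.98% and 2.74% passed.

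The 5 of these with the smallest p at 24 h were PHLDA1, ETV5, DUSP4, ETV4 and DUSP6. PHLDA1, a growth factor-induced gene, was at 182 ± 37.0 CPM in the control and at 87.1 ± 11.9 CPM with Arg and fell by 1.06 ± 0.13 on the log2 scale (adjusted p = 7.2e-05). DUSP4, a phosphatase of ERK, was at 75.4 ± 24.7 and 35.0 ± 5.61 CPM and fell by 1.11 ± 0.18 (adjusted p = 0.00122). DUSP6, another ERK phosphatase, fell by 0.64 ± 0.15 (adjusted p = 0.0159). The ETS-family transcription factors ETV5 and ETV4 fell by 0.73 ± 0.11 and 0.72 ± 0.13 (adjusted p = 0.000780 and 0.00235). The 1 gene of the list that was not lower was the cyclin D1 gene CCND1, named here after its values were seen, at 317 ± 27.1 CPM in the control and 335 ± 20.2 CPM with Arg (adjusted p = 0.606).

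At 48 h, 0 of the 10 ERK targets passed in edgeR and 6 were lower at an unadjusted p under 0.05, against 7.49% of all genes. DESeq2, which also called more of all genes than edgeR at 48 h, called 1 lower. Without control B edgeR called 7, in the fit where 15.9% of all genes passed in either direction. In SPRY4 of this list, control B lay inside the range of the Arg libraries at 48 h. For such genes a smaller p without control B follows from leaving it out, and the count of 7 is no support. With all libraries, the median log2 fold change of the 10 ERK targets was −0.59. PHLDA1 was at 72.5 ± 26.0 CPM in the control and at 38.4 ± 4.56 CPM with Arg (log2 fold change −0.92 ± 0.21, adjusted p = 0.134). DUSP6 (−0.58 ± 0.16, adjusted p = 0.176) and DUSP4 (−0.93 ± 0.29, adjusted p = 0.217) were next. Between 24 and 48 h, 7 of the 10 fell in the control, where 19.9% of all genes passed in either direction, and 8 fell and 1 rose with Arg, where 28.3% passed.

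**Figure D4:**
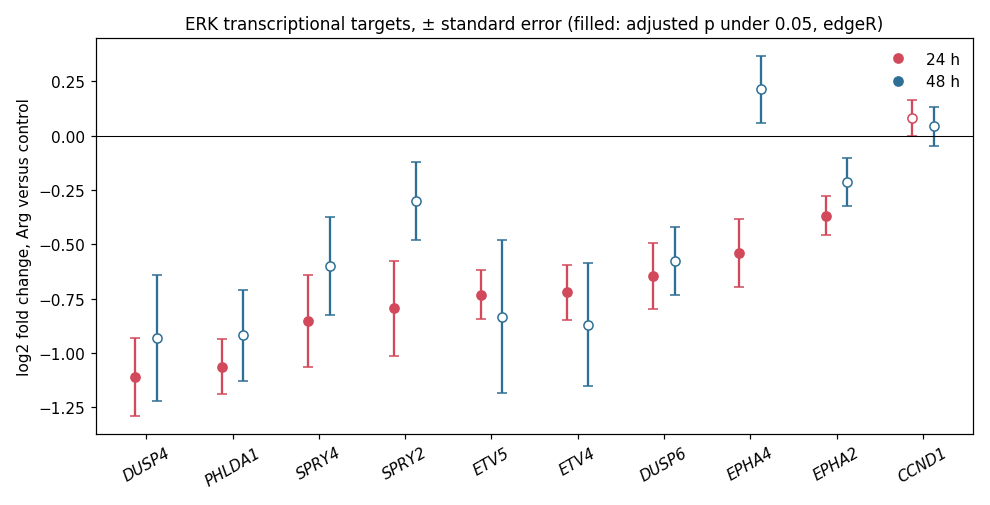
log2 fold change with Arg of the 10 ERK transcriptional targets at 24 h (red) and 48 h (blue), from edgeR. Points are estimates, bars are standard errors, and filled points have an adjusted p under 0.05. 9 genes are filled and below 0 at 24 h, CCND1 is not, and none is filled at 48 h.

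The other lists held 0 to 2 calls with Arg. Of 27 tested adaptors and kinases of the cascade, 2 were lower at 24 h and none was higher, which is 7.41% of the list against 6.63% of all genes. MAP2K1, the gene of the ERK kinase MEK1, was at 111 ± 15.9 CPM in the control and at 79.5 ± 0.487 CPM with Arg and fell by 0.48 ± 0.099 on the log2 scale (adjusted p = 0.00705). STAT3, a transcription factor activated by receptor kinases, fell by 0.30 ± 0.082 (adjusted p = 0.0333). At 48 h none of the 27 passed in edgeR, with 2 at an unadjusted p under 0.05 against 13.4% of all genes, SHC1 (log2 fold change 0.24 ± 0.073, adjusted p = 0.207) and MAP2K1 (−0.24 ± 0.094, adjusted p = 0.294).

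Of the 17 genes of receptor attenuation and sorting, none passed at 24 h in edgeR, where 7 had an unadjusted p under 0.05 against 22.8% of all genes, and none at 48 h, where 1 had against 13.4%. The smallest p at 24 h were those of the ubiquitin ligase genes RNF41 (−0.29 ± 0.087, adjusted p = 0.0504), CBLB (−0.50 ± 0.17, adjusted p = 0.0980) and CBL (−0.20 ± 0.083, adjusted p = 0.152). At 48 h the smallest was that of HGS, an endosomal sorting gene (0.26 ± 0.069, adjusted p = 0.170). Of the 6 genes of ligand shedding, none passed at 24 or 48 h, with 0 and 1 at an unadjusted p under 0.05 against 22.8% and 13.4% of all genes. That 1 was RHBDF2, which encodes an inactive rhomboid that serves the protease ADAM17 (0.32 ± 0.13, adjusted p = 0.310). The gene of ADAM17 itself was at 42.0 ± 5.22 and 40.4 ± 0.941 CPM at 24 h (−0.058 ± 0.10, adjusted p = 0.782).

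The genes whose course over the 12 libraries was most like that of a member were found by the root mean square difference of centred log2 CPM over 15139 genes. For AREG, the ligand with the smallest p at 24 h, they were PTHLH (0.202), SAT1 (0.206) and SPRY4 (0.211), where AREG itself had an SD of 0.787 over the libraries. PTHLH, which encodes parathyroid hormone-related protein, lay at 46.6, 26.6 and 61.9 CPM in the 24 h control and at 32.2, 22.8 and 18.7 CPM with Arg. Control B was the lowest of its group, which follows from choosing PTHLH by its likeness to AREG over these libraries. For ERBB2 they were ARHGEF17 (0.0893), FGFR2 (0.0939) and CCDC57 (0.0957), where ERBB2 had an SD of 0.359. This is a description over libraries that share the design.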

How the data were processed

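TIGK libraries of 4 groups were compared by treatment and time. Reads were cleaned by the authors (fastp), aligned to GRCh38/hg38 (STAR) and assigned to genes (featureCounts), and the deposited values are raw counts, with coordinates and exonic lengths, for 58735 genes. Tool versions, annotation release and strand setting are not given in the sources used here. All 12 columns were used, and total counts were 16542243 to 19040964.

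edgeR 4.0.16 (R 4.3.3) was fitted over all genes for each pair of groups with TMM, edgeR's filter on low counts, the quasi-likelihood test and Benjamini-Hochberg adjustment, without a block, and over 12 libraries for the interaction. The study used DESeq2, which is an alternative here (1.42.0). Scripts were tested on simulated data. CPM use TMM over 12 libraries and TPM the exonic lengths. The SE is the absolute log2 fold change divided by the root of F.

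The members and lists were chosen with earlier results of these data known. All 10 members are named. From each other list, at most 5 genes per Arg comparison with the smallest p among those that passed are named, or at most 3 that did not pass. For the receptor and ligand with the smallest p at 24 h, 3 genes of nearest pattern are named (log2 CPM with 0.5 added).

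The methods give 3 replicates per condition in wells of plates, and nothing says that they were separate experiments, so p-values measure the spread between these libraries. Alternatives were DESeq2, its size factors, library size only, other filters, 12 libraries in 1 model, the replicate letter as a block and leaving out each library.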

Additional observations from a re-analysis of the deposited data

How the results depend on the processing

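Among 648 values of single members under alternatives, 583 kept their direction and side of the threshold, 29 newly passed, 20 no longer passed and 16 changed direction. BTC, with 72 counts in all, was under the filter on low counts in every comparison.

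At 24 h the members called (2) were 5 without a filter on low counts and 0 to 5 with 1 library left out, and all genes called (947) were 359 to 1529. At 48 h the members called (0) were 1 with DESeq2, 3 without a filter and 0 to 5 with 1 library left out. The genes called there (17) were 184 with DESeq2, 573 without a filter, 41 with 12 libraries in 1 model and 6 to 2365 with 1 library left out. ERK targets lower were 4 to 8 with 1 library left out at 24 h (9). At 48 h (0) they were 1 with DESeq2, 5 without a filter and 0 to 7 with 1 library left out. Between times in the control, genes called (2882) were 4568 without control B at both times and 828 to 3304 with 1 library left out. The interaction genes (2) were 23 with DESeq2, 88 without a filter, 103 without control B at both times and 0 to 46 with 1 library left out. The causes were not tested. Leaving out control B at both times, and all alternatives of the ERK counts, were chosen after seeing the data.

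Whether the letters A, B and C pair the libraries is not stated in the sources used here. Same-lettered libraries had a mean correlation of deviations of −0.0134 at 24 h and 0.0124 at 48 h. Between times it was 0.105 in the control, with 0.188 for replicate B, and −0.0379 with Arg. With the replicate block, members called at 24 h were 4 (ERBB2 and EREG added), genes called at 48 h 184 and ERK targets lower at 48 h 2. The member counts at 24 h with the block and without a filter have no share of all genes beside them. They are not read as results about the members.

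Values that changed direction were small. With 1 library left out, ERRFI1 lay between −0.21 and 0.014 on the log2 scale at 24 h, EPGN between −0.17 and 0.060 and ERBB3 between −0.031 and 0.24 at 48 h. The interaction lay between −0.16 and 0.10 for ERBB3 (0.054 without control B at both times), −0.028 and 0.61 for AREG, −0.26 and 0.30 for EREG, −0.060 and 0.17 for ERRFI1 and −0.45 and 0.12 for HBEGF.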

Other observations

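Of the EGF-family genes outside the members, NRG1 had 1185 to 2795 counts in a library. It encodes neuregulin 1, a ligand of ERBB3. It was at 129 ± 7.31 CPM (SD, n = 3) in the 24 h control and at 148 ± 8.09 CPM with Arg. The groups did not overlap, as in 26.2% of all genes tested. Its log2 fold change of 0.20 ± 0.081 did not pass in edgeR's quasi-likelihood test (adjusted p = 0.140). At 48 h it was at 77.4 ± 9.55 and 73.5 ± 4.75 CPM (−0.077 ± 0.092, adjusted p = 0.749). Between 24 and 48 h, NRG1 fell by 0.73 ± 0.097 in the control (adjusted p = 0.00159) and by 1.01 ± 0.075 with Arg (adjusted p = 2.22e-08).

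EGF itself had 0 to 28 counts in a library and ERBB4 had 0 to 7. NRG2 had 0 to 14 counts, NRG4 15 to 38, and NRG3 had 0 counts in all 12 libraries. EGF passed between the times in the control (adjusted p = 0.0338), where 19.9% of all genes passed. In the control it had 0 to 6 counts per library at 24 h and 15 to 16 at 48 h. In the 48 h Arg group it had 2 to 28 counts.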
